A study of Mus musculus with 4 samples.

Results

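The genes that take up choline and build it into phosphatidylcholine were followed in mouse liver after a choline-deficient, ethionine-supplemented (CDE) diet. They were 9 genes chosen by name, Slc44a1, Chka, Chkb, Pcyt1a, Chpt1, Cept1, Etnk2, Pcyt2 and Lpcat3, and all 9 were found among the 13903 genes of the deposited table. All mice were OGT-floxed on the C57BL/6J background, and each was fed this liver-injuring diet. The group labelled OGT-KO was given AAV8-TBG-CRE, a virus that expresses Cre recombinase from the hepatocyte promoter TBG, so that other liver cells keep Ogt, the gene of O-GlcNAc transferase. Mice labelled control carried the same floxed allele and were given AAV8-TBG-eGFP. Both groups were sampled at the end of the diet (no recovery) and 7 days later. Each of the 4 conditions was 1 mRNA-seq library of whole liver, pooled equally from the RNA of 3 mice. Replicate errors are therefore lacking, and no p-value is given. The age and sex of the mice were not given in the sources used here, and no group on a normal diet was analysed here.

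Phosphatidylcholine is the main phospholipid of cell membranes and of the very low-density lipoproteins that carry triglyceride out of the liver. Cells make it from choline by the Kennedy pathway: choline enters through transporters, is phosphorylated by a choline kinase, is activated to CDP-choline by a cytidylyl transferase, and is joined to diacylglycerol by a phosphotransferase. A parallel branch does the same with ethanolamine to give phosphatidylethanolamine, which hepatocytes can methylate to phosphatidylcholine through Pemt. When dietary choline is short, this methylation route is the main alternative source, and ethionine, an analogue of methionine, interferes with methylation.

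The last step of the choline branch has a pair of enzymes, of which Chpt1 differed most among the 9 genes. Chpt1 uses CDP-choline, whereas Cept1 accepts both CDP-choline and CDP-ethanolamine. Both carry the signature of CDP-alcohol phosphotransferases, 7 conserved residues (Asp, Gly, Ala, Arg, Gly, Asp, Asp). The coding stretch that spells it is shown because the pair share a reaction. Capitals mark the codons of the 7 residues, and 57 of the 69 bases are identical.
Chpt1, codons 114 to 136, chr10:88489594-88489662, minus strand, GRCm38: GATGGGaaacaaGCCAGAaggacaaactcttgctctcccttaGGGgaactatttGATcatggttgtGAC
Cept1, codons 136 to 158, chr3:106533368-106533436, minus strand, GRCm38: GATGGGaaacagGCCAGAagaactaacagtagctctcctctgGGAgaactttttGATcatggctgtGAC
Both stretches were read from GENCODE M21 transcripts and lie within 1 coding exon each. Over their whole coding sequences the pair were 67.3% identical, with a longest shared run of 21 bases, so a read longer than that from the coding part can be placed on one or the other.

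The stretches before the start sites of Chka and Chpt1 are shown because these had the highest and the lowest mean difference between the labelled groups. They come from the RefSeq promoter table on GRCm38.p6, which had entries for 8 of the 9 genes and not for Pcyt2. Capitals mark GC boxes (GGGCGG, or CCGCCC on the other strand) and CCAAT boxes (CCAAT, or ATTGG on the other strand). For Chpt1 the stretch ends where the longest GENCODE transcript begins, which leaves off 103 of the 250 bases.
Chka, chr19:3851523-3851772, plus strand: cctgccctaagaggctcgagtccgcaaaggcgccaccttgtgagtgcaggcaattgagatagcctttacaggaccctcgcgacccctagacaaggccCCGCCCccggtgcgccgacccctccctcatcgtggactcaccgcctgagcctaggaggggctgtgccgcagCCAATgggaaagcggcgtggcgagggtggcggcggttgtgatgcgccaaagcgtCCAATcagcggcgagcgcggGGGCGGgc
Chpt1, chr10:88504074-88504220, minus strand: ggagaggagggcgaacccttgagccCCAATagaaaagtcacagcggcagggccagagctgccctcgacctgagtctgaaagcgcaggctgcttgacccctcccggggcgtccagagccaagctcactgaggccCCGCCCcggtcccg
The stretch of Chka held 2 CCAAT and 2 GC boxes, and that of Chpt1 held 1 of each. Over the 250 bases before the start, a GC box was found in 8 of 8 searched members and in 32.9% of 27025 promoters. The median GC content of all these promoters was 52%, against 68% for the stretch of Chka and 67.3% for that of Chpt1. The members were not set against promoters of like GC content. A CCAAT box was found in 4 of 8 members and in 34.5% of promoters. The E-box CACGTG (6.05% of promoters) and the HNF4A-type letters CAAAGTCCA (0.381%; other strand TGGACTTTG) were in 0 of 8 members. The sterol regulatory letters TCACNCCAC (1.04%; other strand GTGGNGTGA) were in 1, Pcyt1a. These searches covered both strands, no 2 of the motifs searched contain each other's letters, and a match is a description of the letters only.

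Before the members are compared, several features of the whole libraries bear on every value. Levels are CPM, reads per 1000000 reads on listed genes, and the 4 libraries held 19972699 to 22866431 reads. Intervals are 95% exact Clopper-Pearson intervals and cover counting error only. Ogt itself was 64.7 CPM in control and 55.3 in OGT-KO with no recovery. After 7 days it was 55.7 in control and 77.7 in OGT-KO, a difference in CPM that goes against the label. The gene-level count covers all exons, so it cannot show a deleted part alone, and groups are therefore named by their labels. The 100 highest genes took 42.8% and 45.0% of the reads in the control libraries and 34.1% and 34.3% in the OGT-KO libraries. Over the 8963 genes that averaged 10 CPM or more, the median difference in log2(CPM + 1), OGT-KO minus control, was 0.51 with no recovery and 0.48 after 7 days. A gene was called at a 2-fold difference on this scale, which understates the change of low genes. With no recovery 24.4% of the genes were called higher in OGT-KO and 5.69% lower, and after 7 days 22.9% were called higher and 4.27% lower. With median-ratio scaling, which divides each library by its median gene ratio, the genes called higher were 40.4% of all those called in place of 81.1% with no recovery, and 49.6% in place of 84.3% after 7 days. For the members that averaged 10 CPM or more, each OGT-KO minus control difference is therefore also given less the median of all genes. The differences of markers and of other listed genes are printed without that step and still hold the shift. For Ogt the log2 differences were −0.22 and 0.47 in the deposited CPM, and −0.93 and −0.20 with median-ratio scaling. Its direction after 7 days thus depended on the scaling.

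The cell makeup of the libraries also differed along the labels. Summed markers of stellate cells and fibroblasts were 160 and 116 CPM in the control libraries (no recovery, then 7 days) against 3052 and 3917 CPM in the OGT-KO libraries, and 8 of 8 were at least 2-fold higher at both times. Bile duct markers summed to 53.9 and 69.9 CPM in control against 1157 and 1469 CPM in OGT-KO, with 6 of 6 higher. Macrophage markers summed to 205 and 77.0 CPM against 833 and 685 CPM, with 6 of 7 at least 2-fold higher at both times. Endothelial markers differed less, at 148 and 109 CPM against 246 and 178 CPM. Of these, 2 of 5 were at least 2-fold higher with no recovery and 0 after 7 days. T, NK and B cell markers, with 3 of 5 in the table, were low throughout, at 1.65 and 1.10 CPM against 4.81 and 2.88 CPM. Hepatocyte markers, with 9 of 10 in the table, summed to 82307 and 91465 CPM against 56881 and 70197 CPM, and their median log2 difference was −0.87 with no recovery and −0.44 after 7 days. In whole-liver RNA, fewer cells of a type and less RNA per cell cannot be told apart, and the part that cell makeup has in the members' differences was not tested.

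**Figure D1:**
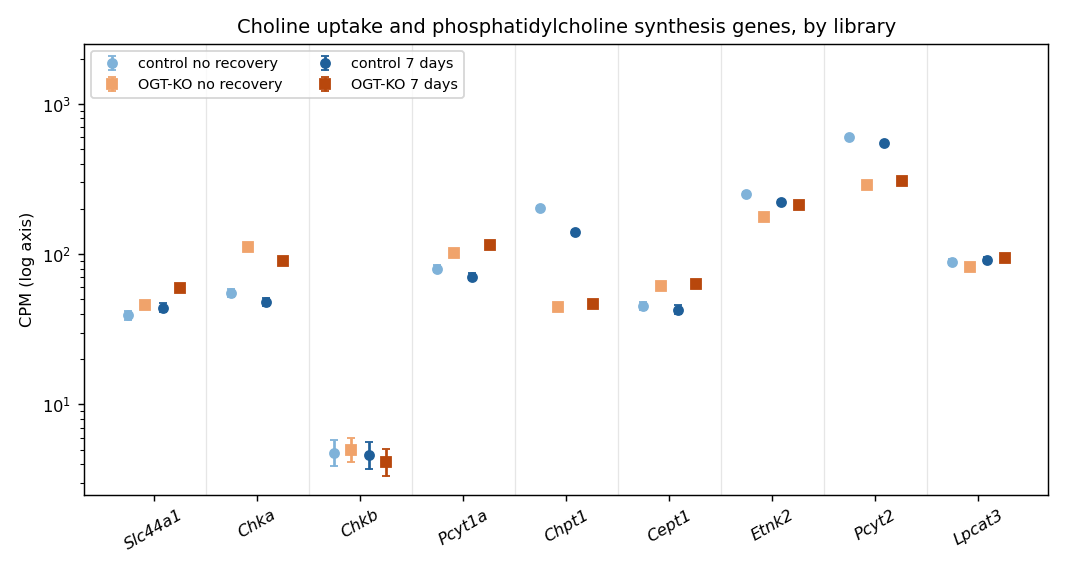
CPM of the 9 genes in the 4 libraries, on a log axis; points are single libraries (circles control, squares OGT-KO; pale no recovery, dark 7 days) and bars are 95% counting intervals, often smaller than the point. Chpt1 lay at 203 and 140 CPM in control and at 44.2 and 46.3 CPM in OGT-KO, while Chkb lay under 5 CPM throughout.

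Chpt1 (ENSMUSG00000060002; minus strand of chromosome 10, 88452745 to 88504073 on GRCm38; 8 exons) showed the largest difference of the 9 genes. It was 203 CPM (interval 197 to 209) in control with no recovery, 44.2 (41.5 to 47.0) in OGT-KO with no recovery, 140 (134 to 145) in control after 7 days and 46.3 (43.5 to 49.2) in OGT-KO after 7 days. Both OGT-KO libraries lay below both control libraries, and the OGT-KO values at the 2 times had overlapping intervals. The level was 4.60-fold lower in OGT-KO with no recovery (interval 4.29 to 4.93) and 3.01-fold lower after 7 days (2.81 to 3.24). On the log2 scale the differences were −2.18 and −1.57, or −2.68 and −2.05 less the median of all genes, and both were called lower. Of the genes compared, 1.58% lay lower than Chpt1 with no recovery and 1.79% after 7 days. Its differences lay within the range of the hepatocyte markers but near the low end, below their medians of −0.87 and −0.44. Cyp2e1, at −3.16 and −2.93, and Serpina1a, at −2.23 and −1.68, were lower than Chpt1 at both times. Apoa1, at −1.60 and −1.97, was lower than Chpt1 only at the later time. All other hepatocyte markers in the table lay above Chpt1 at both times. Hnf4a, at −1.34 and −0.91, was the nearest of them, while Alb was at −0.21 and −0.08 and Ass1 at −0.35 and 0.002.

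Cept1 (ENSMUSG00000040774; minus strand of chromosome 3, 106502260 to 106547802; 9 exons), the enzyme of dual specificity, did not share that difference. It was 45.2 and 42.5 CPM in the control libraries and 61.0 and 63.0 CPM in the OGT-KO libraries, with OGT-KO above control at both times. The log2 differences were 0.42 and 0.56 and were not called, and less the median of all genes they were −0.08 and 0.08. With median-ratio scaling the sign turned, to −0.28 and −0.12.

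A ratio of 2 genes within a library does not depend on how libraries are scaled. Per kb of transcript, Chpt1 exceeded Cept1 3.25-fold (interval 3.03 to 3.48) in control with no recovery and 2.37-fold (2.19 to 2.56) in control after 7 days. In OGT-KO the ratio was 0.523 (0.482 to 0.568) at the earlier time and 0.531 (0.489 to 0.575) at the later. The order of the pair was thus opposite in the libraries of the 2 labels, and the ratios differed 6.20-fold and 4.47-fold. The summed level of the pair was 68.1 and 50.9 CPM per kb in control and 33.0 and 34.3 CPM per kb in OGT-KO. Chpt1 made up 76.4% and 70.3% of that sum in control against 34.3% and 34.7% in OGT-KO.

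**Figure D2:**
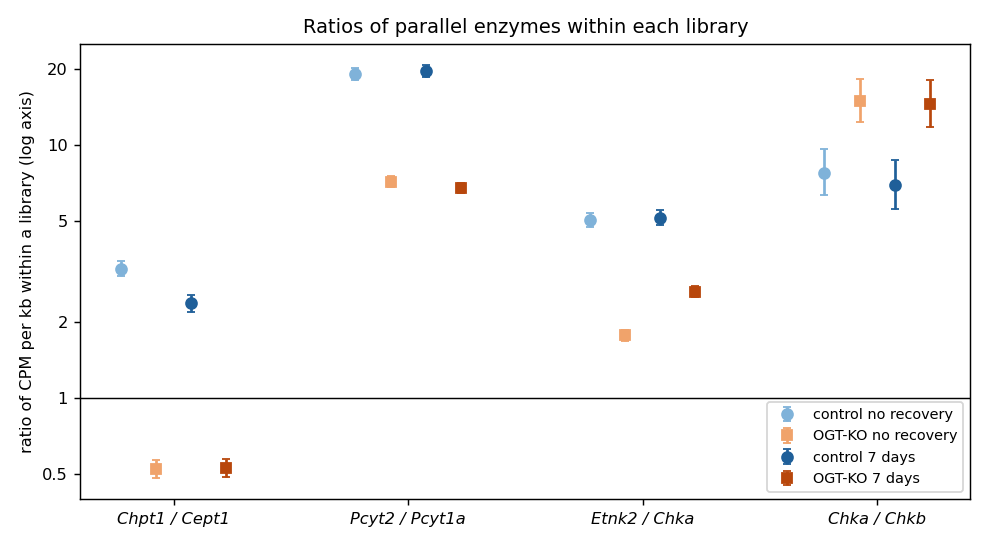
Ratios of CPM per kb of transcript within each library for 4 pairs of enzymes, on a log axis; circles are control, squares OGT-KO, pale no recovery, dark 7 days, and bars are 95% counting intervals. Chpt1 / Cept1 lay above 1 in both control libraries and near 0.5 in both OGT-KO libraries, and Pcyt2 / Pcyt1a was 19.1 and 19.7 in control against 7.18 and 6.79 in OGT-KO.

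Choline enters the pathway through Slc44a1 (ENSMUSG00000028412; plus strand of chromosome 4, 53440413 to 53622478; 16 exons), a choline transporter of the plasma membrane and mitochondria. It was 39.0 and 44.1 CPM in control and 45.6 and 59.2 CPM in OGT-KO. The lowest value was control with no recovery and the highest OGT-KO after 7 days, and the intervals of OGT-KO with no recovery (42.8 to 48.4) and control after 7 days (41.2 to 47.1) overlapped. Its log2 differences, 0.22 with no recovery and 0.42 after 7 days, were not called. Less the median of all genes they were −0.29 and −0.06. Both differences were below 0 with median-ratio scaling (−0.49 and −0.25) and with upper-quartile scaling (−0.25 and −0.06).

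Choline kinase was represented by Chka and Chkb, which phosphorylate choline and can also act on ethanolamine. Chka (ENSMUSG00000024843; plus strand of chromosome 19, 3851773 to 3894369; 11 exons) was 55.2 CPM (52.1 to 58.4) in control and 111 (107 to 116) in OGT-KO with no recovery, and 47.8 (44.8 to 50.9) in control and 89.7 (85.8 to 93.7) in OGT-KO after 7 days. Both OGT-KO libraries lay above both control libraries. The level was 2.02-fold higher with no recovery (interval 1.88 to 2.16) and 1.88-fold higher after 7 days (1.74 to 2.03). On the log2(CPM + 1) scale the differences were 0.9987 and 0.89, the first 0.0013 short of the threshold, so neither was called. Less the median of all genes they were 0.49 and 0.42, and 24.4% and 26.5% of the genes compared lay higher. Its difference stayed above 0 with each scaling, at 0.29 and 0.22 with median-ratio scaling.

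Chkb (ENSMUSG00000022617; minus strand of chromosome 15, 89426360 to 89429908) was the lowest of the 9 genes per kb in every library. Its 4.75 and 4.61 CPM in control and 4.99 and 4.12 CPM in OGT-KO rested on 92 to 114 reads, and all 4 intervals overlapped. It was the member that did not pass the filter on low values. An annotated same-strand gene, Gm44502, overlaps it, and how reads in the shared part were counted is not given in the sources used here. Per kb, Chka exceeded Chkb 7.78-fold (6.34 to 9.63) and 6.95-fold (5.61 to 8.71) in control, against 14.9-fold (12.4 to 18.2) and 14.6-fold (11.8 to 18.1) in OGT-KO.

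Pcyt1a (ENSMUSG00000005615; plus strand of chromosome 16, 32430921 to 32475070; 9 exons) encodes CTP:phosphocholine cytidylyl transferase, the rate-limiting enzyme of the choline branch, which is largely controlled by its binding to membranes. It was 80.1 and 70.8 CPM in control and 102 and 115 CPM in OGT-KO, with OGT-KO above control at both times. The ratio to control was 1.27 (1.19 to 1.35) at the earlier time and 1.63 (1.52 to 1.74) at the later. The log2 differences of 0.34 and 0.69 were not called, and less the median of all genes they were −0.17 and 0.22. With median-ratio scaling they were −0.37 and 0.02, so the direction with no recovery depended on the scaling.

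In the ethanolamine branch, Pcyt2 (ENSMUSG00000025137; minus strand of chromosome 11, 120610087 to 120617936; 14 exons), the cytidylyl transferase that makes CDP-ethanolamine, had the highest level per kb of the 9 genes in every library. It was 601 CPM (590 to 611) in control and 287 (280 to 294) in OGT-KO with no recovery, and 547 (537 to 557) in control and 307 (300.2 to 315) in OGT-KO after 7 days. Both OGT-KO libraries lay below both control libraries. The level was 2.09-fold lower with no recovery (2.03 to 2.16) and 1.78-fold lower after 7 days (1.73 to 1.83). Only the first was called, at −1.06 on the log2 scale. The second, at −0.83, was 0.17 short of the threshold in CPM and was called lower with each of the 3 other scalings (−1.31, −1.51 and −1.10). Less the median of all genes the differences were −1.57 and −1.31, and 5.21% and 5.17% of the genes compared lay lower. Within a library the ratio of Pcyt2 to Pcyt1a per kb was 2.66-fold and 2.90-fold lower in OGT-KO than in control.

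Etnk2 (ENSMUSG00000070644; plus strand of chromosome 1, 133363572 to 133380336; 8 exons), the liver-enriched ethanolamine kinase, differed less. It was 251 CPM (244 to 257) in control and 178 (172 to 183) in OGT-KO with no recovery, and 223 (216 to 229) in control and 213 (207 to 219) in OGT-KO after 7 days. The intervals of the 2 libraries were apart with no recovery and overlapped after 7 days. As a ratio to control, Etnk2 was 0.708 (0.680 to 0.738) at the earlier time and 0.956 (0.918 to 0.996) at the later. The log2 differences were −0.49 and −0.06, neither called, and −1.003 and −0.54 less the median of all genes. With median-ratio scaling they were −1.21 and −0.75, and the first was then called lower. Set against Chka per kb, Etnk2 was 5.04-fold and 5.17-fold higher in control and 1.77-fold and 2.63-fold higher in OGT-KO.

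Lpcat3 (ENSMUSG00000004270; plus strand of chromosome 6, 124663027 to 124704418; 13 exons), which puts polyunsaturated fatty acids onto lysophosphatidylcholine, was the steadiest of the compared members in CPM. It was 87.9 and 91.9 CPM in control and 82.4 and 94.2 CPM in OGT-KO. The log2 differences of −0.09 and 0.03 had opposite signs and became −0.60 and −0.44 less the median of all genes, and −0.80 and −0.64 with median-ratio scaling.

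**Figure D3:**
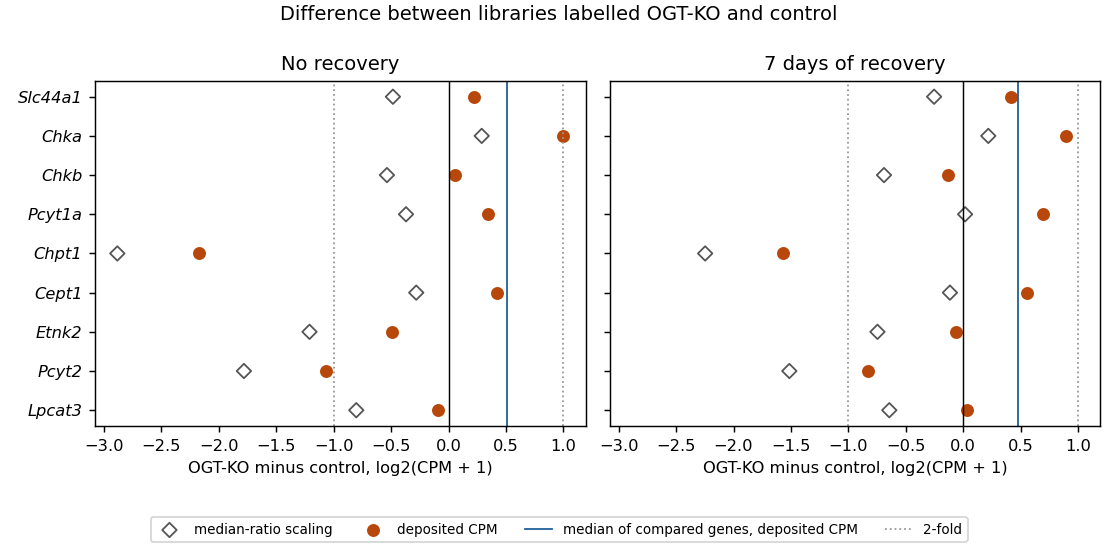
OGT-KO minus control in log2(CPM + 1) for the 9 genes with no recovery (left) and after 7 days (right); filled points use the deposited CPM, open diamonds median-ratio scaling, the blue line is the median of the 8963 genes compared and dotted lines mark 2-fold. Chpt1 lay at −2.18 and −1.57 and Pcyt2 at −1.06 and −0.83, below 0 with both scalings, while Cept1 and Slc44a1 changed sides of 0 with the scaling.

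Of the 8 members past the filter, 0 were called higher and 2 lower with no recovery, which is 25% called lower, where 24.4% of all genes were called higher and 5.69% lower. After 7 days 0 were called higher and 1 lower, which is 12.5%, where 22.9% of all genes were called higher and 4.27% lower. With median-ratio scaling 3 were called lower with no recovery and 2 after 7 days. Of the 8963 genes compared, 1381 and 1055 were called lower with that scaling, a larger share than in CPM. The members had a median of 0.06 at no recovery and 0.23 after 7 days, below the 0.51 and 0.48 of all genes compared. With 8 members these shares describe the genes and carry no test.

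Per kb, the order of the 9 genes was led by Pcyt2 and Etnk2 in every library. In control with no recovery the levels were 319 CPM per kb for Pcyt2, 109 for Etnk2, 52.1 for Chpt1, 38.5 for Lpcat3, 21.7 for Chka, 16.7 for Pcyt1a, 16.1 for Cept1, 12.6 for Slc44a1 and 2.78 for Chkb. Chpt1 had rank 3 in that library, rank 4 in control after 7 days at 35.8 CPM per kb, and rank 8 in both OGT-KO libraries at 11.3 and 11.9 CPM per kb. Chka moved the other way, from rank 5 in both control libraries to rank 3 in OGT-KO with no recovery (43.7 CPM per kb) and rank 4 in OGT-KO after 7 days (35.2 CPM per kb). Neighbours such as Pcyt1a and Cept1 (21.3 and 21.7 CPM per kb in OGT-KO with no recovery) were too close for their order to be read.

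The time after the diet made smaller differences than the label. Among all genes compared, 0.245% were called higher and 0.96% lower after 7 days than with no recovery in control, and 1.04% higher and 0.435% lower in OGT-KO. No member was called in either comparison. In control, 2 of the 8 members lay above 0 and 6 below, with a median of −0.15 against −0.05 for all genes. In OGT-KO, 7 lay above 0 and 1 below, with a median of 0.14 against −0.03. Chpt1 had the largest time difference among the members in control, −0.54 on the log2 scale, and 5.05% of the genes compared lay lower. In OGT-KO its time difference was 0.07. Slc44a1 had the largest in OGT-KO at 0.37, with 0.17 in control. Chka was lower after 7 days in both, at −0.20 and −0.31. The comparisons share libraries with those between the labels, and these differences between control and OGT-KO were not tested.

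By the shape of the pattern over the 4 libraries, measured as the Euclidean distance of centred log2(CPM + 1) values among 8963 genes, the genes nearest to Chka were Fth1 at 0.0297, Ttl at 0.0334 and Rps19 at 0.0347. The genes nearest to Chpt1 were Ces1f at 0.122, Ghr at 0.174 and Adh7 at 0.202. Ghr, the growth hormone receptor, was 502 and 410 CPM in control and 119 and 124 CPM in OGT-KO. The measure rests on 4 libraries.

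The other steps around the pathway were read from a list of 48 further genes, of which 35 passed the filter. With no recovery 7 of the 35 were called higher in OGT-KO and 0 lower, and after 7 days 9 were called higher and 1 lower. Among those past the filter these are 20% and 25.7% called higher, against 24.4% and 22.9% of all genes, and both shares are near the background. The median of the 35 was 0.06 at no recovery and 0.10 after 7 days.

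Among these other genes, 7 were called higher at both times. The share of all genes called higher at both times was not counted, so no background stands beside this count. The 7 genes included 2 transporters of the family of Slc44a1. Slc44a2, a choline transporter-like protein, was 7.62 and 5.61 CPM in control and 43.4 and 46.0 CPM in OGT-KO (log2 differences 2.36 and 2.83). Slc44a3 was 6.73 and 6.76 CPM in control and 14.6 and 19.5 CPM in OGT-KO (1.01 and 1.40). Slc44a1, by contrast, was not called at either time.

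Lpcat4, an acyltransferase of lysophospholipids, differed by 3.29 and 3.83, from 0.847 and 0.601 CPM in control (18 and 12 reads) to 17.1 and 21.8 CPM in OGT-KO. Pld1 and Pld2, phospholipases that release choline from phosphatidylcholine, were higher by 1.76 and 1.78 and by 1.13 and 1.29. Lpin3, a phosphatidic acid phosphatase that supplies diacylglycerol, was higher by 2.67 and 2.38, and Agpat1, which makes phosphatidic acid, by 1.08 and 1.39. With median-ratio scaling, Lpcat4, Slc44a2, Lpin3 and Pld1 stayed past 2-fold at both times (1.09 and 1.13 for Pld1, the smallest), whereas Agpat1, Pld2 and Slc44a3 kept their direction but fell short of 2-fold. Of these 7 genes, 5 (Lpcat4, Slc44a2, Slc44a3, Lpin3 and Pld2) lay under 10 CPM in both control libraries and passed the filter on the mean only through their OGT-KO values, so the filter itself selected for that direction. All 7 were higher in the same libraries as the stellate cell, duct and macrophage markers given above, and the part of cell makeup in them was not tested.

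**Figure D4:**
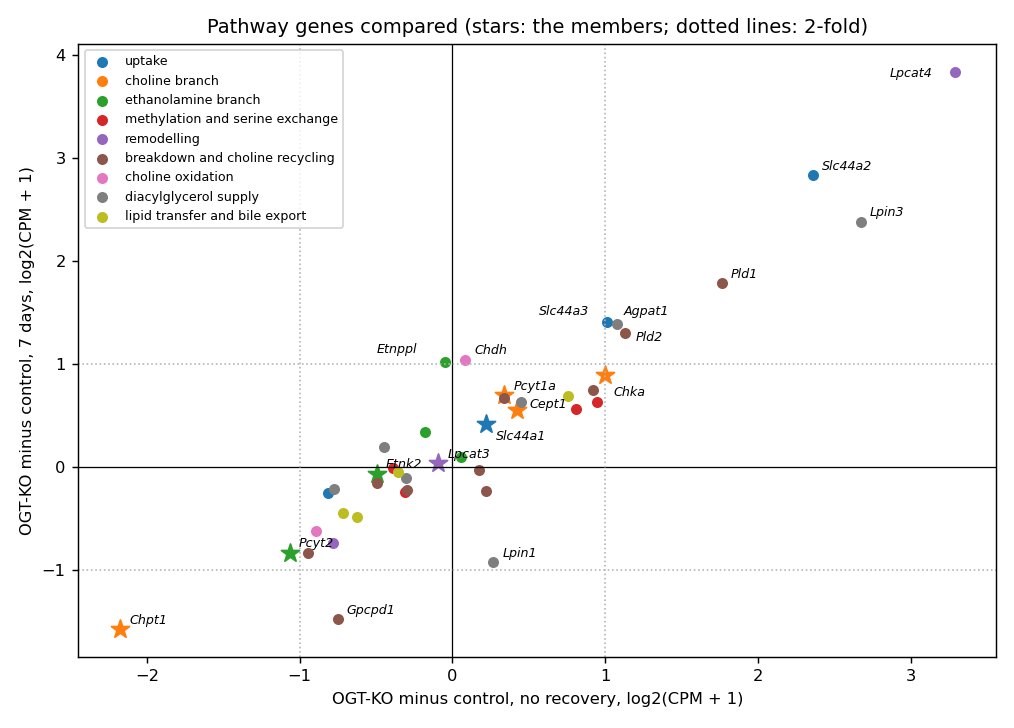
OGT-KO minus control in log2(CPM + 1) with no recovery (horizontal) and after 7 days (vertical) for the 43 pathway genes past the filter, coloured by role; stars are the members and dotted lines mark 2-fold. Chpt1, at the lower left, was the only gene past 2-fold lower at both times. Pcyt2 was past it with no recovery and Gpcpd1 after 7 days. The 7 genes past 2-fold higher at both times, led by Lpcat4 at 3.29 and 3.83, stand at the upper right.

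Values are also given for 3 genes that act beside the members. Etnk1, the other ethanolamine kinase, was 89.1 and 79.4 CPM in control and 92.8 and 85.0 CPM in OGT-KO. Selenoi, the ethanolamine phosphotransferase, was 64.0 and 56.5 CPM in control and 56.4 and 71.6 CPM in OGT-KO. Pemt, the methyltransferase that turns phosphatidylethanolamine into phosphatidylcholine, was 206 and 197 CPM in control and 157 and 196 CPM in OGT-KO, with log2 differences of −0.39 and −0.01. None of these 3 was called, and they were picked for their place in the pathway after the values were seen. Slc44a5 and Slc5a7, also on the list, were not found by name in the deposited table.

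The recovery comparisons called 2 genes of the list. Gpcpd1, which breaks down glycerophosphocholine, was 52.1 CPM in control with no recovery and 107 CPM in control after 7 days, a log2 difference of 1.02, and 30.6 and 37.7 CPM in OGT-KO. Between the labels its differences were −0.75 and −1.48, so it was the gene called lower after 7 days. Lpin1, another phosphatidic acid phosphatase, was 118 CPM with no recovery and 43.8 CPM after 7 days in OGT-KO, a difference of −1.41, and 98.0 and 84.1 CPM in control. Chdh, which oxidises choline to betaine aldehyde in mitochondria, and Etnppl, which breaks down phosphoethanolamine, were each called higher after 7 days alone, at 1.04 and 1.02. These 2 genes fell outside the rule for naming and were chosen after their values were seen.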

How the data were processed

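Whole-liver RNA was isolated with TRIzol and made into libraries with a Tecan mRNA-seq kit, per the labels. The deposited values are CPM, in which the authors scaled each library to 1000000. The submitters' processing notes name STAR, DESeq2 and GRCm39, and versions, counter and strand handling were not given in the sources used here. Whole reads were recovered from the CPM (100.0% of values whole within 0.02), and 3 reads, the limit that a count of 0 allows, equal 0.131 to 0.150 CPM. All 4 columns were used. The paper describes no CDE diet experiment and gave no methods for these libraries.

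Differences of log2(CPM + 1) were called at 2-fold over genes that averaged 10 CPM or more (8963 of 13903). A condition is 1 library, so replicates could not be compared. The steps were tested on simulated reads. Gene models and lengths came from GENCODE M21 (GRCm38), where 13893 of 13903 identifiers were found, and all coordinates are on that build. Lengths are those of 1 coding transcript per gene. Opposite-strand genes overlap Chka, Chkb, Pcyt1a, Cept1, Chpt1, Slc44a1 and Lpcat3. Python 3.11.15, numpy 2.4.6, pandas 2.3.3, scipy 1.17.1 and matplotlib 3.10.9 were used.

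Members and lists were chosen with earlier results of these data known. Named genes were all members, listed genes called the same way at both times or in a recovery comparison, and the 3 nearest patterns to the members with the highest and lowest mean difference. Ratios within libraries, percentile positions and the coding stretch were chosen after values were seen. Alternatives were pseudocounts of 0.1 and 10, no filter or a mean of 50, upper-quartile and median-ratio scaling, totals without the 100 highest genes, thresholds of 1.5-fold and 4-fold, and an added exact binomial test on reads.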

Additional observations from a re-analysis of the deposited data

Results flagged for a closer look

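Some genes lay on opposite sides of 0 at the 2 times, OGT-KO minus control in log2(CPM + 1), and in each case the difference between the times was not tested, since each condition has 1 library. Ogt was −0.22 with no recovery and 0.47 after 7 days. Lpin1 was 0.27 and −0.93. Etnppl was −0.05 and 1.02. Among the members, Chkb was 0.06 and −0.13 and Lpcat3 was −0.09 and 0.03. With median-ratio scaling Ogt (−0.93 and −0.20), Lpin1 (−0.44 and −1.60), Chkb (−0.54 and −0.69) and Lpcat3 (−0.80 and −0.64) lay below 0 at both times. Their opposite signs thus depended on the scaling, whereas Etnppl kept its signs, at −0.76 and 0.34. As a ratio of OGT-KO to control, Chkb was 1.05 (95% interval 0.796 to 1.39) and 0.895 (0.663 to 1.21), within counting error at both times.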

How the results depend on the processing

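No paired analysis was possible because each condition has 1 library, and for the same reason no library could be left out. Over the 5 alternatives that change a difference (2 pseudocounts and 3 scalings), 163 of 180 member differences kept their sign. The 17 that did not all came from the 3 scalings. A pseudocount cannot turn a sign, so the differences under the 2 pseudocounts kept theirs by design and say nothing on stability. Chka, Chpt1, Pcyt2 and Etnk2 kept their sign in both label comparisons. With upper-quartile scaling Cept1 and Pcyt1a were −0.05 and −0.13 with no recovery. Scaling moved the median of all genes to 0.04 and 0.01 (upper quartile), −0.19 and −0.18 (median ratio) and 0.29 and 0.22 (without the 100 highest genes), with no recovery and after 7 days. All genes called were 2185 higher and 510 lower with no recovery and 2050 and 383 after 7 days, against 1208 and 981, and 1215 and 740, with upper quartile, 935 and 1381, and 1038 and 1055, with median ratio, and 1636 and 677, and 1469 and 533, without the 100 highest. The binomial test removed no call, but it covers counting error only. Genes that averaged 10 CPM or more held enough reads for a 2-fold difference to pass it, so its outcome is no support for the calls. Of 240 counts over 10 alternatives, 159 stayed within 1.5 times.

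Members called higher with no recovery were 0, and 1 with pseudocount 0.1 or at 1.5-fold. Members called lower were 2, but 3 with median-ratio scaling, where Etnk2 was added, and 1 at 4-fold. After 7 days members higher were 0, and 2 at 1.5-fold, and members lower were 1, but 2 with each of the 3 scalings and at 1.5-fold, and 0 at 4-fold. Other listed genes called higher with no recovery were 7, but 4 with pseudocount 10 and with each scaling, 15 without a filter, 0 at a mean of 50, 11 at 1.5-fold and 3 at 4-fold. Those called lower were 0, but 8 with upper quartile, 15 with median ratio, 3 without the 100 highest and 8 at 1.5-fold. Of the other listed genes, 46 were in the table and 35 passed the main filter. All genes called moved as well, as given above for the scalings. With no recovery they were 4077 higher and 907 lower at 1.5-fold, and 691 and 164 at 4-fold. They were 4595 and 605 without a filter, 525 and 351 at a mean of 50, and 1367 and 414 with pseudocount 10. After 7 days 9 other listed genes were higher, but 16 without a filter, 2 at a mean of 50, 4 with upper quartile and with median ratio, 14 at 1.5-fold and 3 at 4-fold. The 1 called lower became 5 with upper quartile, 7 with median ratio, 4 without the 100 highest, 5 at 1.5-fold and 0 at 4-fold. All genes called after 7 days were 3856 higher and 674 lower at 1.5-fold, and 788 and 87 at 4-fold. They were 4492 and 461 without a filter, and 503 and 281 at a mean of 50. Over recovery in control the 1 listed gene called higher became 0 with pseudocount 10 and at 4-fold, and 1 was called lower at 1.5-fold. In OGT-KO 1 was called higher at 1.5-fold, and the 1 called lower became 2 at 1.5-fold and 0 at 4-fold. The causes were not tested.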
